A study of Zea mays with 4 samples.

Results

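GAPC3, IPP, ANT1 and ANT2 are maize genes of cytosolic energy metabolism and of the exchange of adenine nucleotides between mitochondria and cytosol. They were taken from the deposited table by their exact IDs, and all 4 were present among its 22525 IDs. GAPC3 encodes a cytosolic glyceraldehyde-3-phosphate dehydrogenase, an enzyme of glycolysis. IPP encodes an inorganic pyrophosphatase, and ANT1 and ANT2 encode adenine nucleotide carriers of the mitochondrial inner membrane. Transcripts were counted in whole maize (Zea mays) seedlings, roots and shoots together, at the V3 leaf stage, grown in a greenhouse with 14 h of day and 10 h of night. The genotypes were the inbred B73, on which the maize reference genome is based, and A188xB73, with 2 libraries each. The labels call the second genotype an F1 of the lines A188 and B73 and also HiII, and it is called the hybrid below. In both genotypes the titles tell the libraries apart as RPI10 and RPI11. What these codes mark is not given, nor whether the libraries came from separate plants, so p-values measure only the spread between these libraries, which may be technical.

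As background, glyceraldehyde-3-phosphate dehydrogenase oxidises a triose phosphate in the middle of glycolysis and passes electrons to NAD+. Maize carries several genes for the cytosolic enzyme, and some GAPC genes of maize are known to respond to low oxygen while others are not. Inorganic pyrophosphatase splits the pyrophosphate that polymer synthesis releases, which pulls those syntheses forward. In plants, pyrophosphate can also serve as an energy donor for sucrose breakdown and for a step of glycolysis. The adenine nucleotide carriers bring ADP into the mitochondrion and let ATP out, and they couple respiration to the use of ATP elsewhere in the cell.

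The libraries held 275271 and 403858 counts in B73 and 1341976 and 883812 in the hybrid (RPI10 and RPI11 in turn), so the hybrid libraries had the larger totals. Levels are given as CPM, the counts per 1000000 of the library total after scaling by the trimmed mean of M-values (TMM), unless the library total alone is named. On the TMM scale a single count was worth 2.78 and 1.96 CPM in the B73 libraries, against 0.979 and 1.42 CPM in the others. Of the shoot markers listed, CAB1 and FDX2 were in the table, and together they reached 422 to 434 CPM in the B73 libraries, against 1583 to 2150 CPM in those of the hybrid. Of the root markers only FDX3, a ferredoxin of non-green tissue, was in the table, with 1 or 2 counts in each library. The part of this shoot marker difference in the results on the 4 genes was not tested. In bulk seedlings, fewer cells of a type and less RNA per cell cannot be told apart.

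GAPC3 and IPP were lower in the hybrid than in B73, GAPC3 at 15.0% of its B73 level and IPP at 26.3%. Neither ANT1 nor ANT2 passed the test between genotypes. All 4 genes passed the filter on low counts and were among the 3282 IDs tested. Thus 2 of the 4 genes were called lower and 0 higher, by edgeR's quasi-likelihood test at a Benjamini-Hochberg adjusted p under 0.05. Over all IDs tested 25.4% were called lower and 25.3% higher. GAPC3 and IPP passed the filter through their B73 libraries only, the side where they are high. Per library total GAPC3 had 113 and 94.1 CPM in B73 against 6.71 and 12.4 CPM in the hybrid, RPI10 first. IPP had 36.3 and 42.1 CPM in B73 against 8.20 and 3.39 CPM in the hybrid. Without the filter GAPC3 was still called (edgeR adjusted p = 9.62e-05) and IPP was not (edgeR adjusted p = 0.0574). The log2 fold changes of the 4 genes ran from -2.74 to 0.57 with a median of -1.01, and the median over all IDs tested was -0.04. With 4 genes that go both ways, these counts and medians describe the genes one by one and nothing more.

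**Figure D1:**
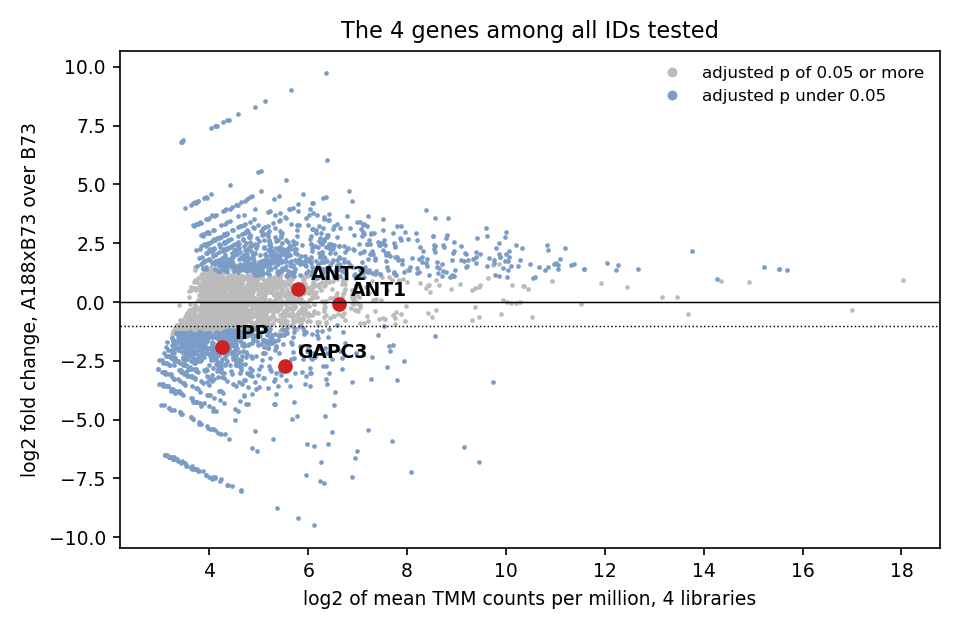
Log2 fold change of the hybrid over B73 (vertical axis) against the log2 of mean TMM-scaled CPM over the 4 libraries (horizontal axis) for the 3282 IDs tested, with the 4 genes in red and a dotted line at a log2 fold change of -1. GAPC3 (-2.74) and IPP (-1.93) lie among the called IDs below that line, and ANT1 (-0.09) and ANT2 (0.57) lie among those not called.

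GAPC3 had 31 counts (86.3 CPM) in the RPI10 library of B73 and 38 counts (74.3 CPM) in its RPI11 library. In the hybrid it had 9 counts (8.81 CPM) with RPI10 and 11 counts (15.7 CPM) with RPI11. Both hybrid libraries lay far below both B73 libraries, even though they held more counts in all, and the same order was found for 40.2% of the IDs tested. The exact Poisson 95% interval, which covers counting error only, ended at 28.0 CPM in the higher hybrid library and began at 52.6 CPM in the lower B73 library.

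The mean level of GAPC3 was 80.3 ± 8.45 CPM in B73, against a hybrid mean of 12.2 ± 4.85 CPM (SD over 2 libraries in either case). Its log2 fold change was -2.74 (SE 0.45, 95% interval -3.72 to -1.75, edgeR adjusted p = 0.000558). The interval puts the hybrid at 7.60% to 29.7% of the B73 level. A test against a 2-fold difference was also run, since the labels name B73 as a parent of the hybrid and an F1 would hold a B73 copy of the gene. GAPC3 was lower by more than 2-fold (edgeR glmTreat adjusted p = 0.00320), as were 15.7% of the IDs tested. DESeq2 called GAPC3 lower (adjusted p = 0.00801) but did not place it past 2-fold (adjusted p = 0.157).

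The log2 difference of hybrid and B73 for GAPC3, computed on CPM plus 1, was -3.15 within RPI10 and -2.18 within RPI11. Since both hybrid libraries lay below both B73 libraries, any pairing of them gives this sign, and only the sizes are new. Among the tested IDs, GAPC3 ranked high in B73 and low in the hybrid. It exceeded 89.5% and 87.4% of the tested IDs in B73 (RPI10 and RPI11), but 20.7% and 33.9% in the hybrid. The tested IDs are the better counted ones. Among all 22525 IDs GAPC3 ranked 336 and 404 in B73, and 4037 and 2451 in the hybrid. The hybrid libraries had a count for 16569 and 15526 IDs, so GAPC3 was not near the bottom there.

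GAPC2, another cytosolic glyceraldehyde-3-phosphate dehydrogenase gene, was the only other GAPC symbol in the table and gives a comparison within the enzyme family. Only 167 of the 22525 IDs are gene symbols, so further GAPC genes may be present under other IDs. GAPC2 had 73 and 54 counts in B73 (203 and 106 CPM) and 153 and 125 counts in the hybrid (150 and 178 CPM), RPI10 first. The B73 libraries bracketed both hybrid libraries. Its log2 fold change was 0.10 (SE 0.41, edgeR adjusted p = 0.862), and -0.63 (edgeR adjusted p = 0.207) with library totals as the scale.

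Since both genes are counted in the same libraries, the share of GAPC3 in the sum of GAPC2 and GAPC3 counts does not depend on the scaling. This share was worked out after the values had been seen. It was 29.8% (31 of 104 counts) and 41.3% (38 of 92) in B73, and 5.56% (9 of 162) and 8.09% (11 of 136) in the hybrid. The exact Clopper-Pearson 95% intervals of the hybrid libraries ended at 10.3% and 14.0%, below the 21.2% and 31.1% at which those of B73 began. The mean share was 35.6% ± 8.13 in B73 against 6.82% ± 1.79 in the hybrid (SD, n = 2), a difference of -28.7 percentage points. With 2 libraries against 2 the smallest p of a two-sided exact permutation test is 0.33, and that was the value obtained. How reads that match several GAPC genes were assigned is not given in the sources used here, so the split between the copies is uncertain.

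**Figure D2:**
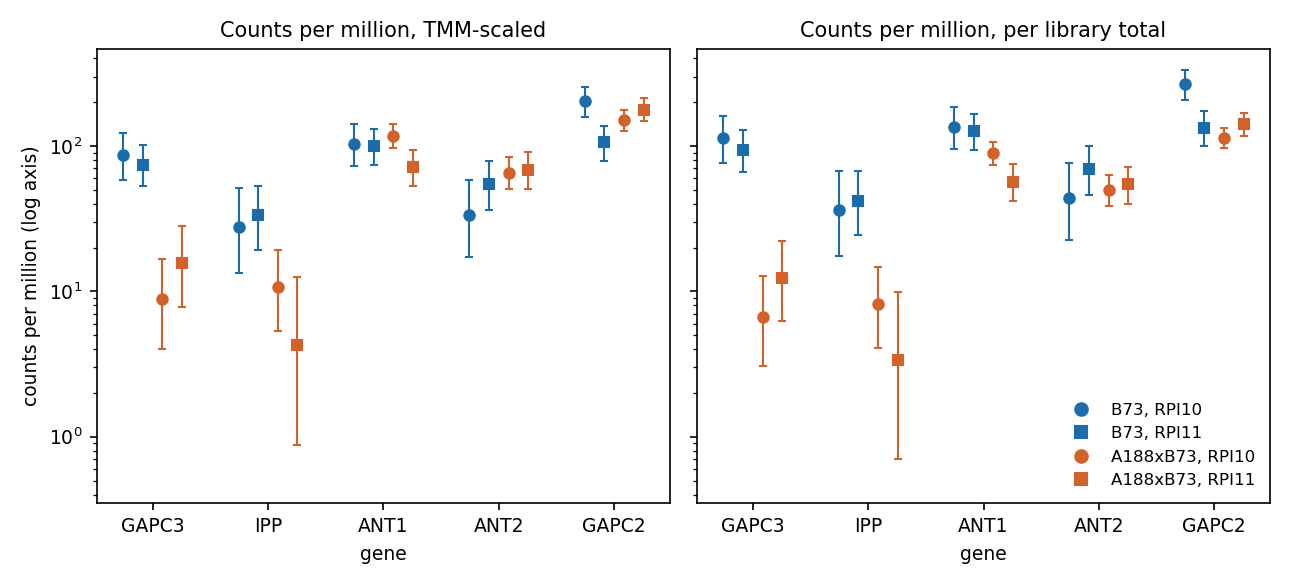
CPM (log axis) of the 4 genes and of GAPC2 in each library, scaled by TMM (left) and by library total (right), with exact Poisson 95% intervals that cover counting error only; blue is B73, orange the hybrid, circles RPI10 and squares RPI11. On both scales GAPC3 and IPP are lower in both hybrid libraries than in both B73 libraries, whereas the hybrid libraries lie above those of B73 for ANT2 with TMM only and below them for ANT1 with library totals only. With TMM, 40.2% of the IDs tested had both hybrid libraries below both B73 libraries, and 76.2% did not overlap. These percentages were not taken with library totals.

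IPP was the least counted of the 4 genes. It had 10 counts (27.8 CPM) and 17 counts (33.3 CPM) in the B73 libraries with RPI10 and RPI11. In the hybrid it had 11 counts (10.8 CPM) with RPI10 and 3 counts (4.27 CPM) with RPI11. The raw counts of the RPI10 libraries are alike, and the lower CPM of the hybrid there follows from its larger total. Both hybrid libraries lay below both B73 libraries in CPM, as for 40.2% of the IDs tested, but the counting intervals overlapped. The interval of the RPI10 hybrid library reached 19.3 CPM and that of the RPI10 B73 library began at 13.3 CPM.

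The mean level of IPP was 30.5 ± 3.83 CPM in B73 against 7.52 ± 4.59 CPM in the hybrid (SD, n = 2). The log2 fold change was -1.93 (SE 0.52, 95% interval -3.05 to -0.80, edgeR adjusted p = 0.00868). The hybrid thus stood at 12.1% to 57.5% of the B73 level, a range that includes a 2-fold reduction. Against a 2-fold difference the adjusted p was 0.0496 (edgeR glmTreat), just under the threshold. This call past 2-fold was lost when edgeR used DESeq2 size factors (adjusted p = 0.0518) and without a filter on low counts (0.346). It was also lost without either B73 library (edgeR adjusted p = 0.114 without RPI10, 0.226 without RPI11) and without the RPI11 library of the hybrid (0.269).

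The call for IPP rests on few counts and on the settings. It was lost without a filter on low counts (edgeR adjusted p = 0.0574) and with DESeq2 (adjusted p = 0.263). It was also lost without the RPI11 library of B73 (log2 fold change -1.84, edgeR adjusted p = 0.0982) and without the RPI11 library of the hybrid (-1.32, edgeR adjusted p = 0.0550). Without the RPI10 library of the hybrid the log2 fold change was -2.64 (edgeR adjusted p = 0.00471). Within the codes, the log2 difference of hybrid and B73 on CPM plus 1 was -1.29 with RPI10 and -2.70 with RPI11, so the size differed. The shared sign follows from both hybrid libraries lying below both B73 libraries.

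ANT1 had 37 counts (103 CPM) and 51 counts (99.8 CPM) in the B73 libraries with RPI10 and RPI11. It had 120 counts (117 CPM) and 50 counts (71.2 CPM) in the hybrid libraries. The RPI10 hybrid library was the highest of the 4 and the RPI11 hybrid library the lowest, so the genotypes overlapped. The mean level was 101 ± 2.28 CPM in B73, and that of the hybrid 94.3 ± 32.7 CPM (SD, n = 2). The log2 fold change was -0.09 (SE 0.39, edgeR adjusted p = 0.859), and its 95% interval, -0.94 to 0.76, leaves room for a level from 52.0% to 169% of that in B73.

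ANT2 had 12 counts (33.4 CPM) and 28 counts (54.8 CPM) in the B73 libraries with RPI10 and RPI11. It had 67 counts (65.6 CPM) and 48 counts (68.3 CPM) in the hybrid libraries. Both hybrid libraries lay above both B73 libraries on this scale, and the B73 libraries differed from each other more than the hybrid libraries did. The mean level was 44.1 ± 15.1 CPM in B73, and that of the hybrid 66.95 ± 1.96 CPM (SD, n = 2). The log2 fold change was 0.57 (SE 0.41, 95% interval -0.31 to 1.46), which did not pass the test (edgeR adjusted p = 0.259). Groups that do not overlap were common in this table: in 76.2% of the tested IDs the hybrid pair lay wholly above or wholly below the B73 pair. Against a 2-fold difference the adjusted p was 0.985 for ANT1 and 0.798 for ANT2 (edgeR glmTreat).

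The sign of the ANT2 difference and the size of the ANT1 difference depended on the scale. Library totals in place of TMM shifted the median log2 fold change of the tested IDs by -0.72. There were then 482 calls higher and 1357 lower in the hybrid, against 829 and 833 with TMM. On that scale ANT1 stood at -0.82 (edgeR adjusted p = 0.0909) and ANT2 at -0.14 (edgeR adjusted p = 0.789), so ANT2 turned from higher to lower. Per library total, ANT1 had 134 and 126 CPM in B73 but 89.4 and 56.6 CPM in the hybrid. ANT2 had 43.6 and 69.3 CPM in B73, and the hybrid values of 49.9 and 54.3 CPM fell between them. With totals ANT1 no longer overlapped between genotypes and ANT2 did. The share of all tested IDs without overlap was taken with TMM only (76.2%). The change for ANT1 thus has no such share beside it and is not read as a result about ANT1.

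GAPC3 and IPP kept their direction and their call with library totals. The same 3282 IDs were tested there, and both genes passed the filter through B73 only, so this is not separate support. The log2 fold changes of GAPC3 and IPP were then -3.45 (edgeR adjusted p = 2.28e-05) and -2.65 (edgeR adjusted p = 0.000583), where 41.3% of the tested IDs were called lower. Taken from the median of the tested IDs on that scale, the differences were -2.70 for GAPC3, -1.89 for IPP, -0.07 for ANT1 and 0.61 for ANT2.

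**Figure D3:**
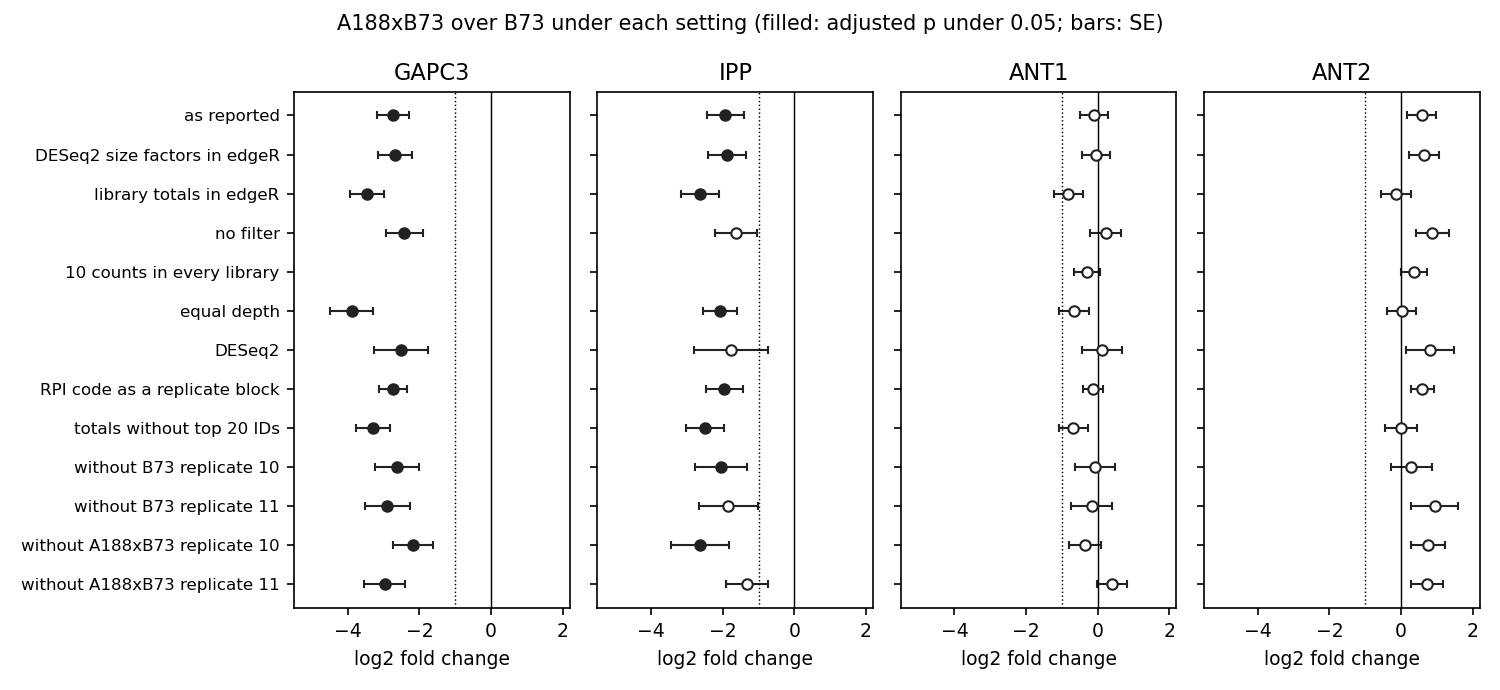
Log2 fold change of the hybrid over B73 with its standard error (horizontal axis) for each gene under each setting (rows); filled points have an adjusted p under 0.05, the dotted line marks -1, and a gene without a point was not tested in that setting. GAPC3 stays left of the dotted line and filled wherever it was tested, from -3.90 to -2.18, IPP loses its call in 4 settings, and no point of ANT1 or ANT2 is filled.

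The carrier copies were set against each other within each library, which needs no scaling. The method reads a tag near the 3′ end of a transcript, so counts were compared without division by length. ANT1 took 75.5% (37 of 49) and 64.6% (51 of 79) of the ANT1 and ANT2 counts in the B73 libraries with RPI10 and RPI11. It took 64.2% (120 of 187) and 51.0% (50 of 98) in the hybrid libraries. ANT1 was the more counted copy in all 4 libraries. In the RPI11 hybrid library the exact Clopper-Pearson 95% interval, 40.7% to 61.3%, included equal shares, and in the others it began at 53.0% or above.

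The mean ANT1 share was 70.0% ± 7.75 in B73 against 57.6% ± 9.30 in the hybrid (SD, n = 2), a difference of -12.4 percentage points. Both hybrid libraries lay below both B73 libraries, but only by a small margin: the nearest libraries stood at 64.2% and 64.6%. The two-sided exact permutation test gave p = 0.33, the smallest it can give for 2 against 2. Leaving out 1 library at a time moved the difference from -19.0 points (without the RPI10 library of the hybrid) to -5.86 points (without the RPI11 library of the hybrid). It was -17.9 points without the RPI11 library of B73 and -6.96 points without its RPI10 library. Within each genotype the share was lower with RPI11 than with RPI10, and this gap was about as wide as that between genotypes. Whether reads common to both copies were split, counted in full or dropped is not given in the sources used here, and such a rule bears on this share directly.

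**Figure D4:**
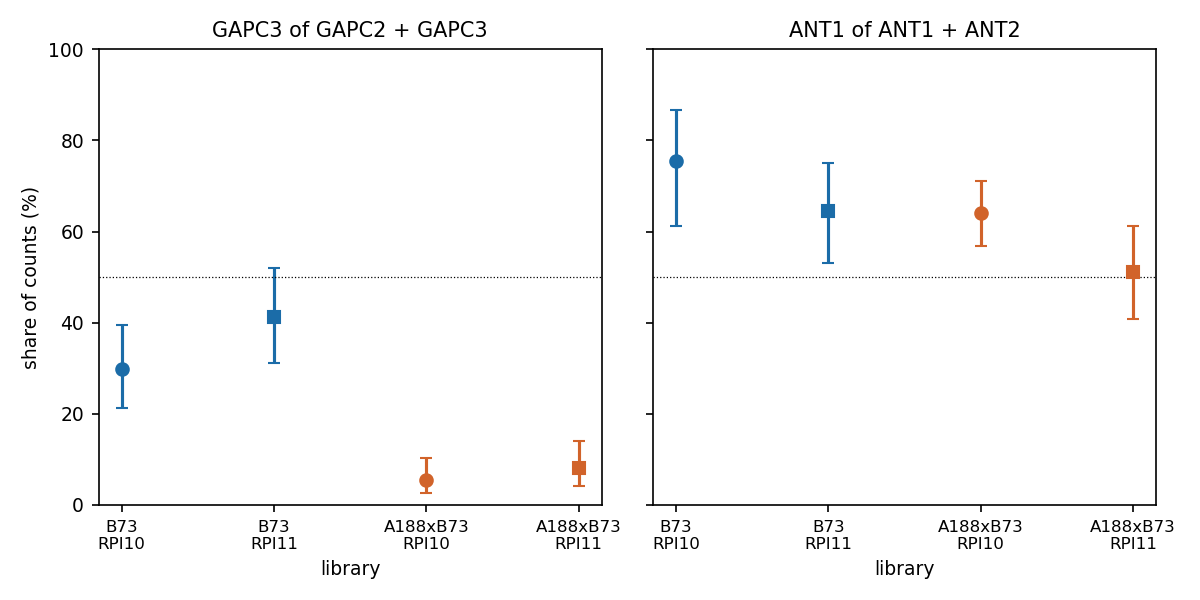
Share of GAPC3 in the GAPC2 and GAPC3 counts (left) and of ANT1 in the ANT1 and ANT2 counts (right) in each library, in percent, with exact Clopper-Pearson 95% intervals that cover counting error only; the dotted line marks equal shares. The GAPC3 share is 29.8% and 41.3% in B73 and 5.56% and 8.09% in the hybrid, with no overlap of intervals, whereas the intervals of the ANT1 share overlap between genotypes.

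The 4 genes together had 90 and 134 counts in B73, RPI10 first, against 207 and 112 in the hybrid. The make-up of this sum differed by genotype. GAPC3 held 34.4% and 28.4% of it in B73 but 4.35% and 9.82% in the hybrid. IPP held 11.1% and 12.7% in B73 and 5.31% and 2.68% in the hybrid. The carriers took the larger part in the hybrid: ANT1 held 41.1% and 38.1% in B73 and 58.0% and 44.6% in the hybrid, and ANT2 held 13.3% and 20.9% in B73 and 32.4% and 42.9% in the hybrid. The genotypes did not overlap for any of these shares, which sum to the whole and so are not independent of each other. With TMM, 76.2% of the tested IDs did not overlap either. No such background was taken for shares of counts, so the lack of overlap is a description only.

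Between the RPI codes, with genotype as a term, 0 of the 4 genes passed the test (edgeR), where 3.26% of the tested IDs did, and none of the 4 had an unadjusted p under 0.05. The log2 fold change of RPI11 over RPI10 was 0.10 for GAPC3 (95% interval -0.71 to 0.91) and -0.26 for IPP (-1.32 to 0.80). It was -0.42 for ANT1 (-1.001 to 0.16) and 0.28 for ANT2 (-0.38 to 0.94). DESeq2 was not run for this comparison.

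Other genes of central metabolism were looked up from a list of 80 symbols. Only 167 of the 22525 IDs are gene symbols, so listed genes that carry other IDs can be missed, here and in the mitochondrial list below. The table used here paired 3 IDs with the 80 symbols, all tested, of which 2 were called higher in the hybrid and 0 lower. Higher calls made up 25.3% of all IDs tested, and 36 of the 90 gene symbols tested. The one not called was GAPC2, described above. PHI1, a glucose-6-phosphate isomerase of glycolysis, had 4 and 2 counts in B73 and 44 and 19 in the hybrid libraries (a log2 fold change of 2.32, SE 0.60, edgeR adjusted p = 0.00700). SPS, a sucrose-phosphate synthase, had 22 and 15 counts in B73 and 128 and 75 in the hybrid libraries (a log2 fold change of 1.39, SE 0.44, edgeR adjusted p = 0.0183). With library totals PHI1 was still called (1.61, edgeR adjusted p = 0.0370) and SPS was not (0.67, edgeR adjusted p = 0.210). The upper glycolysis gene PHI1 and GAPC3 thus stood on opposite sides of 0 on both scales. PHI1 passed the filter on low counts through its hybrid libraries only, and GAPC3 through those of B73 only.

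From a list of 39 mitochondrial symbols 2 IDs were in the table beside the carriers, and both were called lower in the hybrid, where 25.4% of all IDs tested and 17 of the 90 gene symbols were. They were CPN60I and CPN60II, chaperonins that fold proteins in the mitochondrial matrix. CPN60I had 9 and 7 counts in B73 and 0 and 2 in the hybrid libraries (a log2 fold change of -3.78, SE 0.77, edgeR adjusted p = 0.00178). CPN60II had 8 and 8 counts in B73 and 1 and 4 in the hybrid libraries (a log2 fold change of -2.59, SE 0.62, edgeR adjusted p = 0.00443). Both stayed lower with library totals (edgeR adjusted p = 0.000120 and 0.000360), where the share called lower was 41.3%. Both carriers, which sit in the same organelle, were not called in either fit. CPN60I and CPN60II passed the filter on low counts through their B73 libraries only. Of IDs counted this low in the hybrid, only those higher in B73 were tested, which bears on the direction of these calls. No test of the difference between the carriers and the chaperonins was run.

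The gene symbols whose pattern over the 4 libraries lay nearest to each gene were found by Euclidean distance of centred log2(TMM CPM + 1) among the 89 other symbols tested. Nearest to GAPC3 were ACK2 (distance 0.73), CPN60II (0.76) and SIP1-2 (1.03), where the median distance was 3.58. Nearest to IPP were TUBA3 (0.66), SODCC.1 (0.79) and SODCC.2 (0.88), with a median of 3.05. The choice by likeness to 2 genes that are lower in the hybrid fixes the direction of these 6, whose log2 fold changes ran from -3.57 for SIP1-2 to -1.28 for SODCC.2. Nearest to ANT1 were ADF3 (0.37), C2 (0.40) and TUBA5 (0.46), with a median of 1.65, and nearest to ANT2 were PRO4 (0.24), PIP2-1 (0.40) and DER2.2 (0.44), with a median of 1.54. The log2 fold changes of these 6 ran from -0.28 for ADF3 to 0.95 for DER2.2 with TMM, and from -1.01 for ADF3 to 0.23 for DER2.2 with library totals. The distances rest on 4 libraries in 2 genotypes and are a description only.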

How the data were processed

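Libraries were made by a CelSeq2-based method with 10 bp unique molecular identifiers and 6 bp barcodes, per the labels' protocols. The submitters' processing notes name CASAVA 1.4, HISAT2, UMI-tools and the build B73 RefGen_v4, without roles. Whether deposited counts are collapsed molecules, and how reads of near-identical copies or of A188 alleles were counted, is not given in the sources used here. The authors deposited whole-number counts per ID in 1 table, 1 column per library.

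The main test was that of edgeR 4.0.16 (R 4.3.3), fitted to the 4 libraries with a single term for genotype. IDs were kept by filterByExpr (minimum count 10), which left 3282 of 22525. TMM factors were computed on these IDs with full library totals and multiplied those totals for CPM. The quasi-likelihood test and glmTreat (log2 fold change 1) were adjusted by Benjamini-Hochberg over all IDs tested, threshold 0.05. Standard errors were derived from the log2 fold change and its F statistic. The variance behind the edgeR tests was estimated with information pooled over IDs, so their p-values do not rest on the spread of each gene alone. Shares carry Clopper-Pearson intervals (scipy 1.17.1). DESeq2 1.42.0 was an alternative. Names were matched to RefSeq genes of Zm-B73-REFERENCE-NAM-5.0. That is another build, so no coordinates are given, and sequences were not used here.

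The genes, lists and tests were chosen with earlier results of these data known. Named genes were the 4, all tested IDs of both lists, and for each of the 4 the 3 nearest symbols. The GAPC2 comparison and totals without the 20 most abundant IDs were added after seeing the data.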

Additional observations from a re-analysis of the deposited data

How the results depend on the processing

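GAPC3 kept its direction and its call in all 11 other fits in which it was tested; its test past 2-fold was lost with DESeq2 only (adjusted p = 0.157). The edgeR fits with another scaling or with the RPI block tested the same 3282 IDs as the main fit. GAPC3 and IPP passed that filter through their B73 libraries only, so these fits are not separate support. Without a filter the log2 fold change of GAPC3 was -2.42. A minimum of 10 counts in each library removed GAPC3 and IPP, and DESeq2 gave IPP no adjusted p past 2-fold. IPP lost its call without a filter (log2 fold change -1.62) and with DESeq2 (-1.77), and past 2-fold without a filter (adjusted p = 0.346) and when edgeR used DESeq2 size factors (0.0518). The cause was not tested. Leaving out each library in turn gave log2 fold changes from -2.97 to -2.18 for GAPC3, -2.64 to -1.32 for IPP, -0.35 to 0.40 for ANT1 and 0.29 to 0.95 for ANT2. The adjusted p past 2-fold then ran from 0.000576 to 0.0230, 0.0337 to 0.269, 0.868 to 0.963 and 0.562 to 0.892. In these fits the lone library is assumed to vary like the other genotype.

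ANT1 turned positive without a filter (0.23, adjusted p past 2-fold 0.934), with DESeq2 (0.13, 1) and without the RPI11 library of the hybrid. ANT2 turned negative with library totals (-0.14, 0.963). Neither was called in any setting. The RPI code difference of GAPC3 was -0.0494 with genotype left out. With totals lacking the 20 most abundant IDs, ANT1 was -0.68 and ANT2 0.00357.

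Calls over all IDs numbered 1662, against 401 of 970 IDs tested under that minimum, 736 of 1450 at equal depth, 756 with DESeq2, and 842 to 1318 with a library left out. A fit with a replicate block for the RPI code gave 1870, and no call on the 4 genes differed (GAPC3 -2.74, IPP -1.96, ANT1 -0.14, ANT2 0.60). Same-coded libraries had deviations from their genotype means that correlated at 0.248 across IDs, which with a single pair of codes does not show pairing. Every library was also drawn to 275271 counts in a single random draw, which equalises totals and not the TMM scale. In the hybrid GAPC3 then kept 1 and 2 counts and IPP 3 and 2. In B73 GAPC3 kept 31 and 24 counts and IPP 10 and 15. Here too both genes passed the filter through B73 only, which bears on the direction of their calls. Both calls held (adjusted p = 0.00327 and 0.00972), also past 2-fold (0.00728 and 0.0435), and GAPC3 stood at 6.71% of B73 against 15.0%. At such counts these values depend on the draw, and no other draw was made.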
